A study of Mus musculus with 5 samples.

Results

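Genes of the skeletal muscle sarcomere and of muscle energy supply were examined in whole knee joints of mice lacking both epiphycan (Epyc) and biglycan (Bgn) and of wildtype mice. The 40 genes were listed by name for their roles in muscle, with earlier results of these data known. Of these, 36 had a probe set with 1 gene symbol in both value tables, out of 12393 genes measured, and the probe set with the highest mean signal across the 5 arrays stood for its gene. Neb, Mybpc1, Mybpc2 and Ampd1 were not analysed here. The joints came from 3 pools of Epyc and Bgn double-null mice and 2 pools of wildtype mice, all male, 3 months old and of a C57/Bl6:129 hybrid strain. Both knees of 3 mice (6 joints) made up each pool, which went onto 1 Affymetrix array, so a replicate is a pool of animals and precision is limited by there being 5 of them. The arrays came as 2 tables: type A held double-null pool 3 and wildtype pool 2, and type B held double-null pools 1 and 2 and wildtype pool 1. The tables are filed under 2 Affymetrix platform records that list the same probe sets, so the types are 2 array platforms as recorded. No source used here says whether handling or dissection also differed between them, or how closely muscle was trimmed from the joints.

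A muscle fibre shortens when myosin thick filaments pull on actin thin filaments that are anchored at Z-discs. Depolarisation of the fibre membrane is sensed by a calcium channel that is coupled to the ryanodine receptor of the sarcoplasmic reticulum, and the released calcium is then pumped back or bound by buffer proteins. Creatine kinase, glycogen breakdown, glycolysis and respiration supply the ATP. Many of these genes are switched on in muscle precursors by MyoD family factors, which bind E-boxes (CANNTG), together with MEF2 and serum response factor, which bind the MEF2 site and the CArG box.

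The promoters of 4 members are shown as examples, and a relation of promoter motifs to the differences below was not tested. Mylpf and Pgam2 were called by array type, Acta1 was not, and Csrp3 was the tested member farthest apart by genotype. The 250 bases before each start site are from RefSeq (GRCm38.p6), written on the strand of the gene, with E-boxes, MEF2 sites and CArG boxes in capitals.
Mylpf (chr7:127211358-127211607, plus strand): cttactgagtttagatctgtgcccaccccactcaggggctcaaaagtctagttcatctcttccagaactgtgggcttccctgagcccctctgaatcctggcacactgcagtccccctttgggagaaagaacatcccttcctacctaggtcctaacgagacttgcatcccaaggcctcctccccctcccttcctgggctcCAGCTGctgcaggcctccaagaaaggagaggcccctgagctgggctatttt
Pgam2 (chr11:5803797-5804046, minus strand): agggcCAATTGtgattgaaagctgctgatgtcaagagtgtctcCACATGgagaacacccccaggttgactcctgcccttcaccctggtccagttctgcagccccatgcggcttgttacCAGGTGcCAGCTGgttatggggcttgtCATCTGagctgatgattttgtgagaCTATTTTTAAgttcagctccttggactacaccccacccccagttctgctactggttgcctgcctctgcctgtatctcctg
Acta1 (chr8:123894776-123895025, minus strand): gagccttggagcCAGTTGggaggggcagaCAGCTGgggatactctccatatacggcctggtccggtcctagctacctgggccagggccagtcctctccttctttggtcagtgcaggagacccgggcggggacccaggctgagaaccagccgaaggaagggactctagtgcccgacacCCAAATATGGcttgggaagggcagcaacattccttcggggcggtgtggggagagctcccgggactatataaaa
Csrp3 (chr7:48848052-48848301, minus strand): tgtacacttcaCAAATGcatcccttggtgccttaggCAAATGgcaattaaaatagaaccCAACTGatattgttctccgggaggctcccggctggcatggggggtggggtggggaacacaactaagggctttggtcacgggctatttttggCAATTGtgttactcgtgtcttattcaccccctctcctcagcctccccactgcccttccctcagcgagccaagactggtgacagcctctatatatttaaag
Mylpf held 1 E-box, of the form CAGCTG. Pgam2 held 5 E-boxes, 1 of them CAGCTG, and 1 MEF2 site. Acta1 held 2 E-boxes, 1 of them CAGCTG, and 1 CArG box, while Csrp3 held 4 E-boxes and none of the form CAGCTG.

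Promoter sequences were matched for 26 of the 36 measured members. CAGCTG, which is also counted among the CANNTG matches, stood in 12 of them (46.2%), against 12.8% of 27025 promoters of the same length. A CANNTG E-box stood in 22 (84.6%, against 66.0%), a MEF2 site in 4 (15.4%, against 3.01%) and a CArG box in 3 (11.5%, against 1.40%). TATAAA stood in 4 (15.4%, against 13.0%). Both strands were searched. A match describes these letters and does not show that a factor was bound.

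The muscle share of an array was taken as the summed signal of the 36 members in percent of the summed signal of all genes. It is a share of fluorescence over probe sets that differ in response, not a share of cells, and fewer muscle fibres and less RNA per fibre cannot be told apart in bulk joints. The share was 1.29%, 0.989% and 2.33% in double-null pools 1 to 3, against 1.51% and 2.08% in wildtype pools 1 and 2. The 2 highest shares were those of the type A arrays, 1 of each genotype, and the 3 type B arrays lay below both. By array type the mean was 2.21 ± 0.18% on type A (SD, n = 2) and 1.26 ± 0.26% on type B (n = 3), a ratio of 1.75. That is the most extreme of the 10 possible splits, with a two-sided exact permutation p = 0.1, the smallest this design allows. By genotype the mean was 1.54 ± 0.71% in double-null and 1.80 ± 0.41% in wildtype joints (SD, n = 3 and 2), with overlapping groups and an exact permutation p = 0.7. This comparison was not adjusted for array type, and leaving out an array also changed the mix of types within a genotype. The genotype difference of -0.258 percentage points turned to 0.0171 without double-null pool 2 and 0.0306 without wildtype pool 2. It was -0.135 without double-null pool 1, -0.655 without double-null pool 3 and -0.546 without wildtype pool 1. Within array types the double-null share was 2.33% against 2.08% on type A, and 1.14 ± 0.22% (n = 2) against 1.51% on type B.

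**Figure D1:**
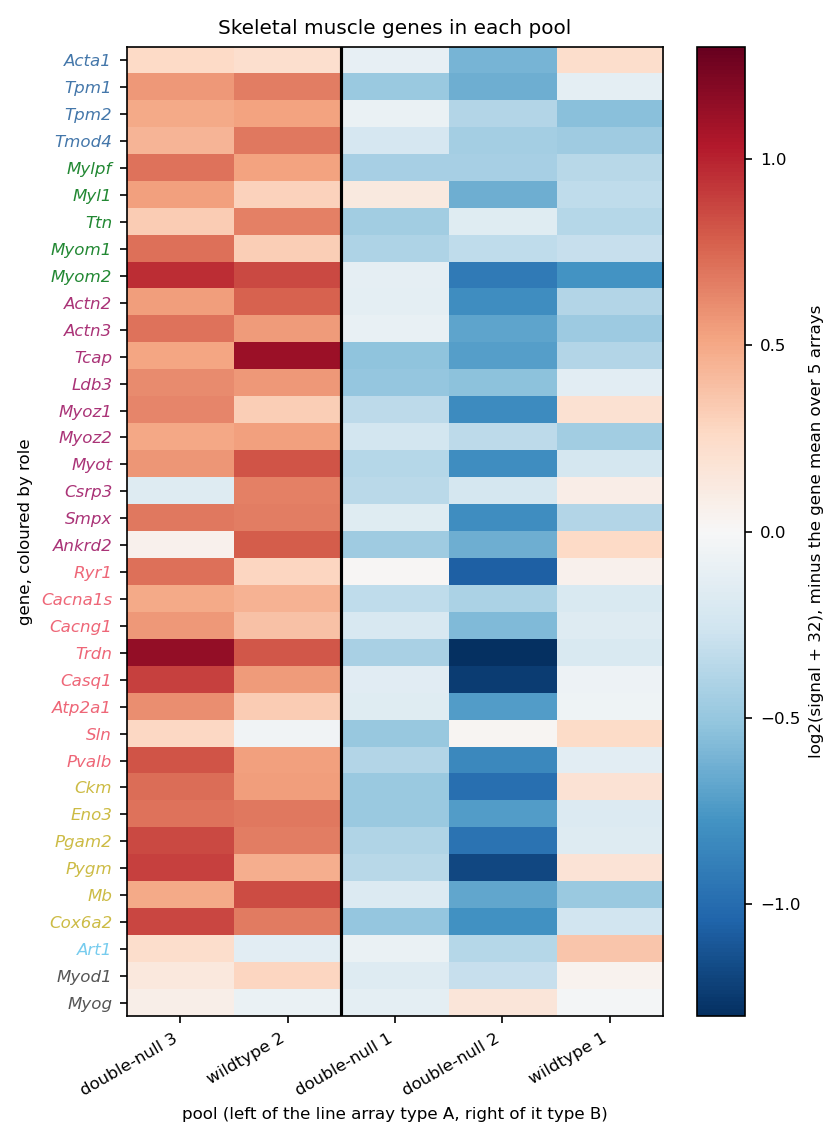
Level of the 36 measured muscle genes in each pool, as log2(signal + 32) after quantile normalisation minus the mean of that gene over the 5 arrays; genes run down the page by role and the line divides array type A from type B. Most genes are above their mean in double-null pool 3 and wildtype pool 2 and below it in the 3 type B pools, and double-null pool 2 is the lowest of the 5 for 27 of the 36.

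Each gene was then fitted with genotype and array type as additive terms (limma on log2(signal + 32), quantile normalised). The array type difference, type A minus type B, was positive for 32 of 32 members above the intensity filter, with a median of 0.99 on the log2 scale, against a median of -0.022 over all 7436 genes tested. Of the 32, 17 rose on type A at an adjusted p under 0.05 (limma, Benjamini-Hochberg over 7436 genes) and none fell, against 0.659% of all tested genes called in that direction, 0.0269% in the other and 0.686% in either. At an unadjusted p under 0.05 there were 29 of the 32, against 5.33% of all tested genes. Myoz2 passed the filter only through the type A arrays and was not called, so the count without it is 17 of 31. Without the filter all 36 measured members were positive and 30 of them (83.3%) had both type A arrays above every type B array after normalisation, against 11.8% of 12393 genes. Among the 32 tested members it was 29, against 12.1% of tested genes. Leaving out double-null pool 3 or either wildtype pool left the array type difference to pools of 1 genotype. The number of calls changed with the array left out. It was 24 when double-null pool 1 was left out and 25 when double-null pool 2 was left out. It was 0 when double-null pool 3, wildtype pool 1 or wildtype pool 2 was left out, where limma gave 21, 30 and 30 members at an unadjusted p under 0.05. The difference stayed positive for 32 of 32 members in these fits, except for 31 and 30 once double-null pool 2 or pool 3 was removed. Without the intensity filter or with median centring 0 members were called (limma, 0% of all genes without the filter), and 29 had an unadjusted p under 0.05 in each.

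Among thin filament genes, Tpm1 and Tmod4 rose on type A. Tpm1, a tropomyosin that blocks or exposes the myosin sites of actin, read 5548 and 5544 on type A (double-null pool 3 and wildtype pool 2) against 2758, 2486 and 3648 on type B (double-null pools 1 and 2 and wildtype pool 1). Both type A values lay above all 3 type B values, with a log2 difference of 0.98 ± 0.15 (SE, limma adjusted p = 0.020). Its second probe set ran the other way, at 576 and 593 on type A against 661, 551 and 909 on type B, a difference of -0.28. Tropomyosin genes are spliced into muscle and non-muscle forms, and no source used here says which forms these probe sets detect. Tmod4, the tropomodulin that caps thin filaments in skeletal muscle, differed by 0.93 (adjusted p = 0.047, limma). Tpm2 had differences of 0.87 to 1.35 on its 4 probe sets, and its brightest missed the threshold (adjusted p = 0.057, limma).

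Acta1, the skeletal muscle actin of the thin filament, was not called by array type. It read 11467 and 9016 on type A against 7934, 6648 and 14065 on type B. The highest deposited signal was on wildtype pool 1, a type B array, and the groups overlapped (log2 difference 0.35 ± 0.17, limma adjusted p = 0.64). After quantile normalisation these 3 arrays lay at about the same level, 0.26 and 0.22 above the gene's mean on type A and 0.23 above it in wildtype pool 1.

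Thick filament and M-band genes were higher on type A in all 5 tested cases, and Mylpf, Myom2 and Ttn passed the threshold. Mylpf, the phosphorylatable light chain of fast myosin, read 6428 and 5343 on type A against 3028, 2940.0 and 3228 on type B. The type B arrays were close to each other whatever their genotype, and the difference was 1.03 ± 0.14 (limma adjusted p = 0.015). Myom2, a myomesin that links thick filaments at the M-band, read 925 and 865 on type A against 426, 228 and 260.3 on type B, and differed by 1.55 ± 0.23 (adjusted p = 0.020, limma). Its paralog Myom1 differed by 0.88 and missed the threshold (adjusted p = 0.058, limma). Ttn, the giant spring protein that spans from Z-disc to M-band, differed by 0.80, and by 0.71 on its second probe set. Myl1, the alkali light chain of fast myosin, was at 0.72 with adjusted p = 0.16 in limma.

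Of 9 Z-disc genes tested, 6 rose on type A. Tcap, the cap protein of titin, read 2855 and 4096 on type A against 1501, 1233 and 1517 on type B. The groups did not overlap and the difference was 1.29 ± 0.16 (limma adjusted p = 0.013). Myot, encoding myotilin, differed by 1.11, Smpx, a small protein of costameres, by 1.11, and Ldb3, a PDZ protein that binds alpha-actinin, by 0.95, all past the threshold. The alpha-actinins, which cross-link actin at the Z-disc, moved by like amounts: Actn2, found in all fibres and in heart, by 1.07 ± 0.21, and Actn3, found in fast fibres, by 1.06 ± 0.18. The calsarcins Myoz1 and Myoz2 were at 0.75 and 0.87 and missed the threshold (adjusted p = 0.31 and 0.078, limma). Csrp3, the muscle LIM protein, was at 0.32 (adjusted p = 0.73, limma), with 173 and 326 on type A against 133, 158 and 209 on type B.

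Of 7 calcium handling genes tested, Trdn and Pvalb rose on type A. Trdn, encoding triadin, which anchors calsequestrin to the ryanodine receptor, read 2220.4 and 1784 on type A against 772, 384 and 871 on type B. Double-null pool 2 was the lowest, and the difference was 1.59 ± 0.28 (limma adjusted p = 0.032). The next 2 brightest Trdn probe sets were at 1.70 and 1.80. Pvalb, the calcium buffer parvalbumin of fast fibres, read 8763 and 6544 on type A against 3967, 2832 and 4893 on type B, a difference of 1.10 ± 0.19 (adjusted p = 0.031, limma). Casq1, the calsequestrin of fast fibres, was at 1.17 ± 0.30 and did not pass, with 474 in double-null pool 2 against 1086 in each of the other type B pools. Differences without a call were 0.81 for the ryanodine receptor gene Ryr1, 0.76 for the calcium pump gene Atp2a1, and 0.77 and 0.78 for the calcium channel subunit genes Cacna1s and Cacng1. Sln, the sarcolipin that inhibits the pump, read 10.9 to 47.4, above the highest Bacillus control on 2 of 5 arrays.

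Of 6 energy genes tested, Cox6a2, Pgam2, Eno3 and Mb rose on type A. Cox6a2, the heart and skeletal muscle form of a cytochrome oxidase subunit, read 1780 and 1565 on type A against 710.0, 559 and 823 on type B, a difference of 1.26 ± 0.19 (limma adjusted p = 0.022). Pgam2 and Eno3, the muscle forms of phosphoglycerate mutase and enolase, differed by 1.23 and 1.12, and Mb, the oxygen store myoglobin, by 1.09. Ckm, the muscle creatine kinase, read 11475 and 8537 on type A against 4915, 3618 and 9033 on type B. Wildtype pool 1 overlapped the type A arrays in the deposited signals, and the difference of 0.99 ± 0.22 missed the threshold (adjusted p = 0.079, limma). Pygm, the muscle glycogen phosphorylase, was at 1.08 ± 0.30 (adjusted p = 0.19, limma), with 2676 and 1987 on type A against 1174, 616 and 1602 on type B.

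A surface enzyme and a pair of myogenic factors made up the rest of the list, and none of these was called. Art1, a surface enzyme that transfers ADP-ribose, read 326 and 247 on type A against 246, 201 and 356 on type B, a difference of 0.05 (limma adjusted p = 0.98). Its second probe set read 245 and 233 on type A against 145, 149 and 195 on type B, a difference of 0.41. Myod1 and Myog, the factors that commit and differentiate myoblasts, lay below the filter, at 49.8 to 92.0 and 38.5 to 63.2, and each exceeded the highest Bacillus control on 4 of 5 arrays. Without the filter their differences were 0.31 and 0.010.

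**Figure D2:**
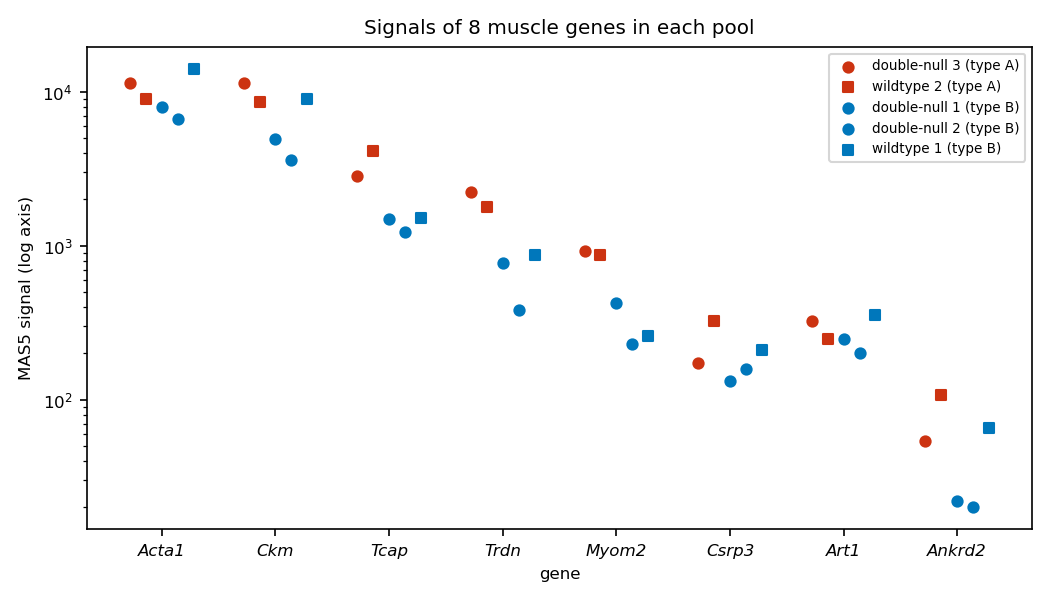
Deposited MAS5 signals of 8 muscle genes in each pool on a log axis; circles are double-null and squares wildtype pools, with array type A in red and type B in blue. Tcap, Trdn and Myom2 divide by colour, Csrp3 and Ankrd2 divide by shape, and Acta1 and Art1 are highest in wildtype pool 1; signals of different genes cannot be set against each other.

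By genotype no member passed the threshold. The count was 0 of 32 tested (limma, adjusted p under 0.05), against 0.121% of all 7436 genes in either direction and 0.0403% lower in double-null. Without the filter it was 0 of 36, against 0.0161%. At an unadjusted p under 0.05 there were 2 of 32, both lower in double-null, against 6.17% of all genes in either direction and 2.65% lower. The median difference, double-null minus wildtype, was -0.15 over the 32 members and -0.011 over all genes, and 25 of the 32 were negative, against 52.1% of all genes. The SE ran from 0.14 for Mylpf to 0.30 for Ryr1, and differences several times that size could also be missed. The 3 tested genes of the tendon list, for example, had a median of 1.02 and none was called. The absence of calls therefore does not show that the members were unchanged. Medians by role were -0.16 for thin filament, 0.14 for thick filament and M-band, -0.20 for Z-disc, -0.15 for calcium handling and -0.22 for energy genes. All 7 calcium handling and all 6 energy genes tested were negative in this fit, and none of them passed. The sign was not shared by the array types. Medians of calcium handling and energy genes were 0.28 and 0.19 on type A, against -0.48 and -0.47 on type B. Leaving out 1 array moved the member median to -0.21 without double-null pool 1, -0.014 without double-null pool 2, -0.37 without double-null pool 3, 0.13 without wildtype pool 1 and -0.37 without wildtype pool 2. It was -0.31 without the array type term, and no member was called in any of these fits.

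Csrp3 and Tcap had the 2 smallest genotype p-values among the 32 members above the filter. Csrp3, which is induced by stretch in muscle, read 133, 158 and 173 in double-null pools 1 to 3, against 209 and 326 in wildtype pools 1 and 2. Every double-null pool lay below both wildtype pools, with a log2 difference of -0.57 ± 0.19 (limma unadjusted p = 0.0105, adjusted p = 0.57). Tcap was at -0.39 ± 0.16 (unadjusted p = 0.036, adjusted p = 0.77, limma), with overlapping groups. Ankrd2, another stretch-induced gene, whose protein shuttles between the I-band and the nucleus, read 21.9, 20.0 and 53.7 in double-null pools 1 to 3, against 66.0 and 108 in wildtype pools 1 and 2. Its groups did not overlap either, but double-null pools 1 and 2 lay below the highest Bacillus controls of those arrays, 31.4 and 63.5, and the gene was not above the filter. In the fit without the filter its difference was -0.78, with a smaller p than any other member (limma unadjusted p = 0.0050, adjusted p = 0.60). Across all measured members 2 of 36 (5.56%) had every double-null array below both wildtype arrays, against 10.8% of all 12393 genes. None had every double-null array above, against 8.92%. Among the 32 tested members Csrp3 alone lay below and none above, against 10.2% and 9.47% of tested genes.

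On the brightest probe set of each gene, paralogs of the sarcomere differed in sign by genotype in 3 of 4 pairs. Actn2 was at -0.14 and Actn3 at 0.11, Tpm1 at -0.29 and Tpm2 at 0.17, Myoz1 at -0.31 and Myoz2 at 0.081, and Myom1 at 0.14 and Myom2 at 0.19. None of these passed the threshold, and differences within pairs were not tested. The values of Actn2, Actn3, Tpm2, Myoz2, Myom1 and Myom2 were smaller than their SE. Signs also depended on the probe set. Tpm2 was at 0.17, -0.34, 0.099 and -0.44 on its 4 probe sets. Myoz1 was at 0.57 on its second, which exceeded the highest Bacillus control on 2 of 5 arrays. The largest positive value of any member was that of Myom2. Ckm was at -0.45 ± 0.22 and Pygm at -0.37 ± 0.30, both with overlapping groups.

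**Figure D3:**
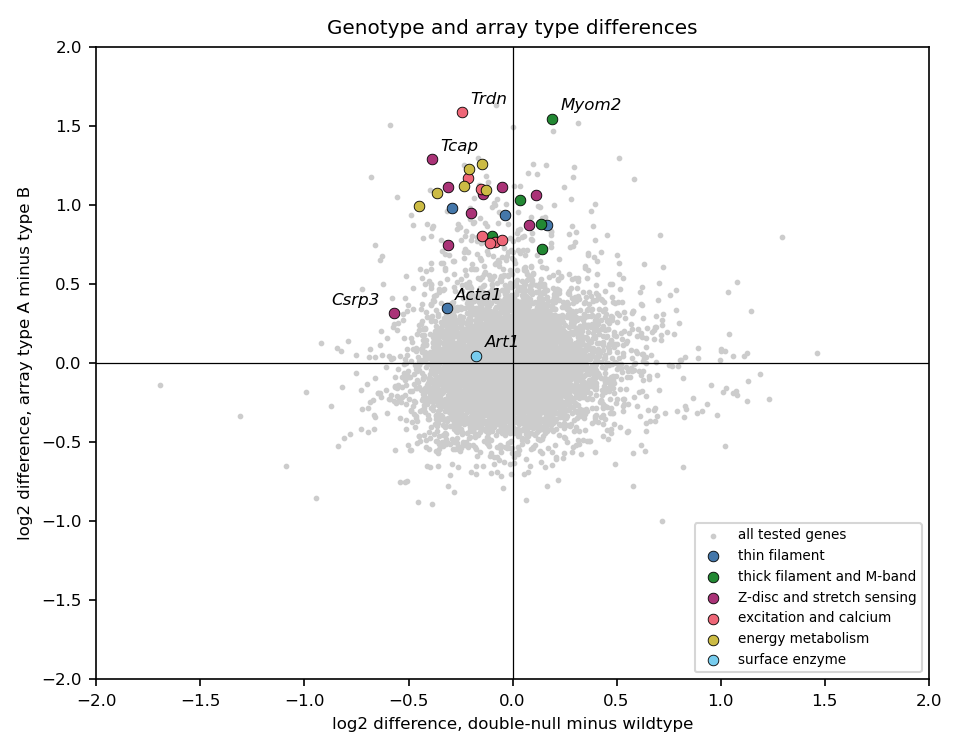
Log2 difference by genotype (x axis, double-null minus wildtype) against log2 difference by array type (y axis, type A minus type B) for the 7436 tested genes in grey and the 32 tested muscle genes coloured by role; 2 genes lie outside the axes. The muscle genes lie above 0 on the vertical axis, from 0.72 to 1.59 apart from Acta1, Csrp3 and Art1, and spread around 0 on the horizontal axis.

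The median genotype difference of the muscle genes was above 0 on type A and below 0 on type B. On type A the median over the 32 tested members was 0.12 (double-null pool 3 minus wildtype pool 2), and on type B it was -0.37 (mean of double-null pools 1 and 2 minus wildtype pool 1). In 19 members the difference was positive on type A and negative on type B, in 5 it was the reverse, in 5 both were negative and in 3 both positive. The test of the difference between types, an interaction term in limma, called 0 of 32 members and 0% of all genes at an adjusted p under 0.05. At an unadjusted p under 0.05 it had 4 of 32 (12.5%), against 6.32% of all genes. These were Ckm (0.18 on type A and -0.92 on type B), Myoz1 (0.31 and -0.78), Pygm (0.42 and -0.95) and Art1 (0.37 and -0.58), each with a limma adjusted p of 0.79. Type A holds 1 pool of each genotype and type B 1 wildtype pool, so a difference between genotypes within a type cannot be told apart from a difference between single pools.

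**Figure D4:**
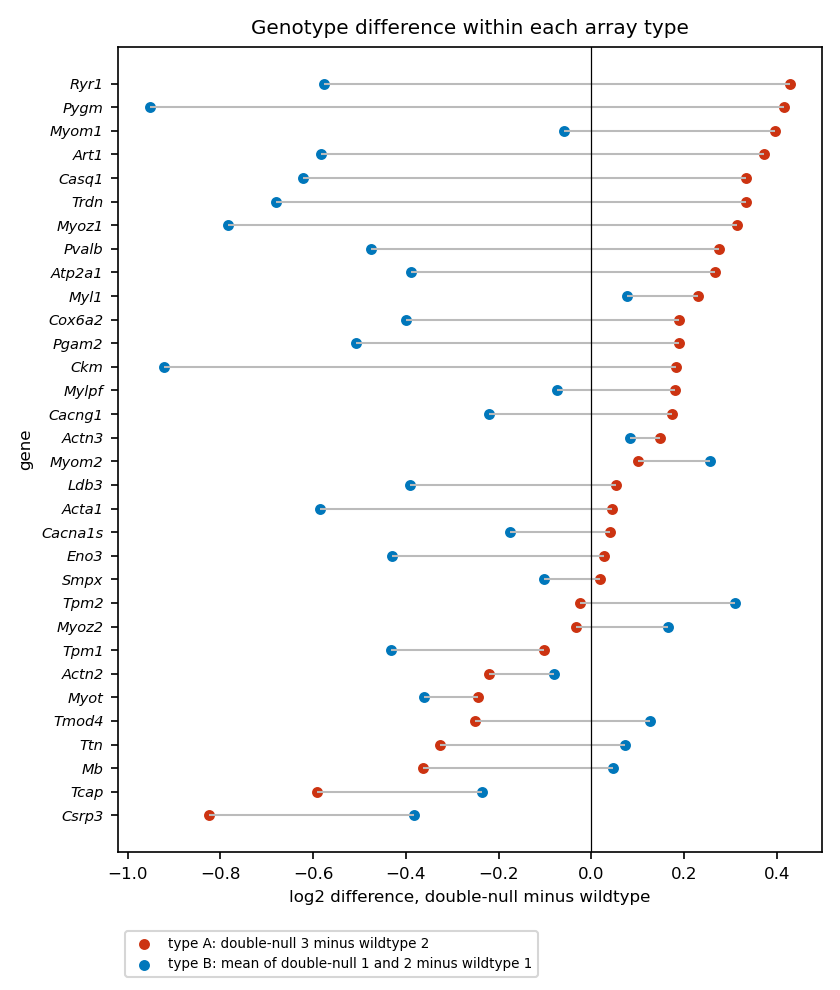
Log2 difference, double-null minus wildtype, of each of the 32 tested muscle genes within array type A (red, 1 pool against 1) and within type B (blue, mean of 2 pools against 1), ordered by the type A value. For 19 genes the red point lies right of 0 and the blue point left of it, and Csrp3, Tcap, Myot, Actn2 and Tpm1 are negative on both.

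Most tested genes on the other muscle lists were also higher on type A, with 3 exceptions. Of 7 fast myosin and troponin genes, all tested, 5 rose on type A (Myh2, Myh4, Tnni2, Tnnc2 and Mylk2), with a list median of 1.04. Myh4, the fast glycolytic myosin heavy chain, read 9143 and 7711 on type A against 6184, 3928 and 4215 on type B. Of 6 slow myosin and troponin genes only Myl2 was above the filter, with signals of 219.9 and 325 on type A against 88.7, 79.4 and 94.1 on type B. It passed the filter only through the type A arrays, so its difference of 1.25 is given without a call. In the deposited signals 5 of these 6 were highest in wildtype pool 2. Of 11 tested genes of muscle glycolysis and fuel 11 were positive, with a median of 0.59, and the mitochondrial creatine kinase gene Ckmt2 and the fatty acid binding protein gene Fabp3 rose, by 1.18 and 0.99. None passed among 6 genes of muscle excitation and membrane (median 0.33), 7 myogenic regulators (0.43) and 2 developmental or cardiac sarcomere genes (0.57). The exceptions were Cacnb1 at -0.22 and Dysf at -0.15 on the excitation and membrane list, where 4 of 6 were positive, and Mef2a at -0.084 among the regulators, where 6 of 7 were. The cardiac genes Myh6, Myl7 and Tnnt2 read at most 29.1, 27.1 and 14.6.

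No gene on any of these muscle lists passed by genotype. The fast genes with the smallest p were Myh2 (-0.59), Mylk2 (-0.56) and Tnni2 (-0.16), and Myl2 was at -0.23. Among fuel genes the insulin-responsive glucose transporter gene Slc2a4 was at -0.39, Gys1 at -0.33 and Gpd1 at -0.34. Hrc, Cacna2d1 and Cacnb1 were at -0.33, 0.42 and 0.23, Mef2c, Capn3 and Fbxo32 at -0.33, -0.19 and -0.16, and Actc1 and Myl4 at 0.40 and -0.21.

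Marker lists of the other tissues in the joint had medians nearer 0 by array type than the members had. None of their tested genes passed by array type, and the medians were 0.075 for 5 smooth muscle genes, -0.26 for 11 cartilage, -0.24 for 9 bone, 0.078 for 3 tendon, -0.039 for 10 neutrophil, -0.076 for 6 erythroid, 0.14 for 8 B lineage and 0.034 for 4 fat genes. Of the 49 genes called higher on type A, 17 were members, 8 were on the other muscle lists, 0 were on the lists of other tissues and 24 were on none. Of these 49, 2 passed the filter only through the type A arrays, Myl2 and a gene on no list, and no member did. The share of signal was lower on type A for the cartilage list, at 0.417% and 0.301% against 0.450%, 0.425% and 0.533% on type B. That of the neutrophil list was 2.33% and 2.04% against 1.97%, 2.71% and 3.03%, with overlap. By genotype none of these genes passed either, and their medians were 0.11 for smooth muscle, -0.11 for cartilage, -0.063 for bone, 1.02 for tendon, -0.095 for neutrophil, 0.038 for erythroid, -0.017 for B lineage and -0.28 for fat. Of all tested genes, 9.47% had every double-null array above both wildtype arrays and 10.2% had every one below. Shares of 2 of these lists did not overlap between genotypes. That of tendon was higher in double-null joints, at 0.0433%, 0.0414% and 0.0400% against 0.0172% and 0.0241% in wildtype joints. That of fat was lower, at 0.0755%, 0.0716% and 0.0729% in double-null against 0.0845% and 0.0884% in wildtype joints. The B lineage share was higher on type A, at 0.162% and 0.166% against 0.141%, 0.1601% and 0.1604% on type B. The part of these tissues in the muscle values was not tested.

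**Figure D5:**
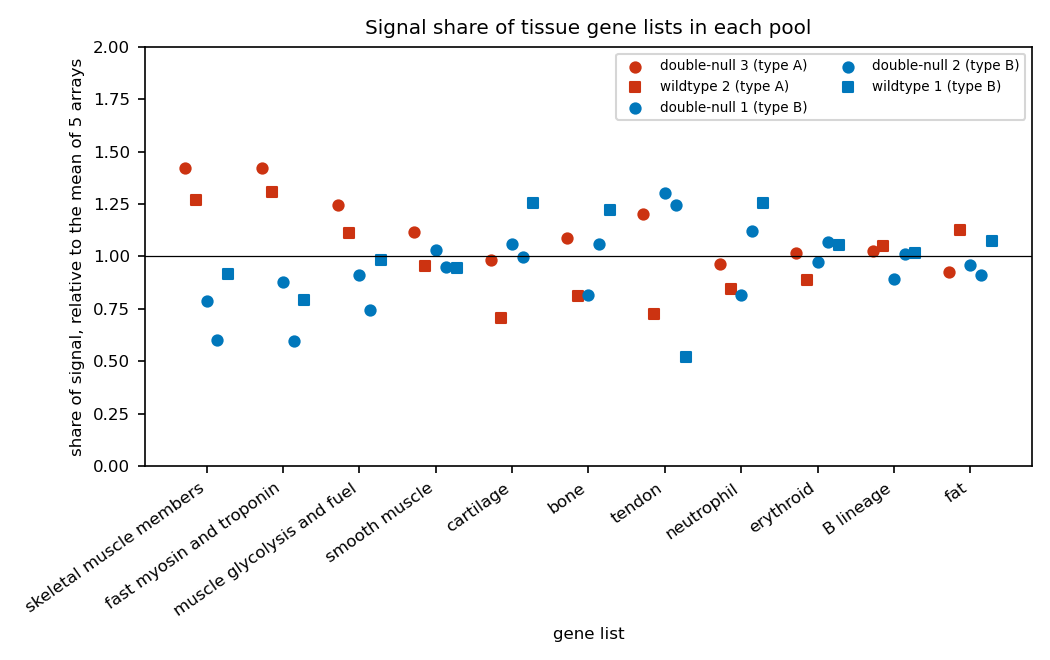
Share of summed signal of each gene list on each array, divided by the mean of that list over the 5 arrays; circles are double-null and squares wildtype pools, with array type A in red and type B in blue. Both red points lie above all blue points for the muscle members, the fast genes, the fuel genes and, by a small margin, the B lineage genes, and below them for cartilage; circles and squares separate for the tendon and fat lists.

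As a check of the labels, Bgn read 45.8, 7.05 and 9.92 in the double-null pools against 4063 and 2356 in the wildtype pools on its brightest probe set (limma adjusted p = 7.0e-07), and Epyc read 10.8, 3.38 and 1.29 against 91.2 and 78.8. The cartilage collagen gene Col2a1 read 3731 to 10257 over the 5 arrays, and the bone sialoprotein gene Ibsp 2545 to 2922. Signals ran from 0.0423 to 26173 over all arrays, and the highest of 27 Bacillus controls was 27.5 to 63.5 on each array.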

How the data were processed

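Joint RNA was isolated with Trizol and RNeasy columns and biotin-labelled by in-vitro transcription, per the labels' protocols. The deposited values are linear signal intensities per probe set, made by the authors with MAS5 per the submitters' processing notes. No source used here gives its version, scaling target or detection calls. The 2% trimmed mean was 250.1 on each array, and both tables held the same 22690 probe sets. Of these 20380 had 1 gene symbol, 691 several and 1555 none, besides 64 controls. Symbols of 20351 probe sets were brought to GRCm38.p6 by their Entrez number.

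Intensities were put on a log2(signal + 32) scale, which understates changes of dim genes, and quantile normalised. The 7436 of 12393 genes whose mean exceeded the 40th percentile (signal 98.5) were tested for genotype and array type with limma 3.58.1 in R 4.3.3 (lmFit, eBayes with trend, 2 residual and 9.68 prior degrees of freedom, two-sided, Benjamini-Hochberg threshold 0.05). The fit was also run on simulated data with independent noise for each gene, which does not mimic genes that vary together by pool. That run checks the code and not the calls made here. The members and lists were chosen with earlier results of these data known. Named genes were the members and, from each muscle list, up to 3 tested genes with the smallest genotype p; genes called by array type were named after their values were seen, and lists of other tissues are given in sum. Alternatives covered scaling, pseudocount, filter, model terms, probe set choice and each array left out.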

Additional observations from a re-analysis of the deposited data

Results flagged for a closer look

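The muscle share differed by genotype in opposite directions on the 2 array types. On type A it was higher in double-null pool 3 than in wildtype pool 2 (2.33% against 2.08%), and on type B it was lower in double-null pools 1 and 2 than in wildtype pool 1 (1.29% and 0.989% against 1.51%). The difference between the 2 genotype differences was 0.616 percentage points. The difference in the share was not tested. Gene by gene, the interaction term in limma called 0 of the 32 tested members.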

How the results depend on the processing

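The array type difference of the members kept its sign in the median under every alternative that could give it, at 0.81 to 1.14 with 1 array left out and 0.88 to 1.05 otherwise, while the number of calls did not hold. Members called by array type were 17 as reported, 3 with the deposited scaling, 0 with median centring, 0 without the filter, 3 when the variance prior had no trend, 6 when the probe sets of a gene were averaged, 8 with the second brightest probe set, and 0 to 25 with 1 array left out. Under the same settings all genes called by array type, 51 as reported, numbered 10, 2, 0, 12, 14, 27 and 0 to 134. Members with an unadjusted p under 0.05 stayed between 21 and 30 in limma. Tpm1 turned to -0.28 with its second brightest probe set. Fewer degrees of freedom were left where 1 array was left out, also where the calls rose to 25. Leaving out double-null pool 3 or either wildtype pool also left the array type difference to pools of 1 genotype. The cause of the changes in the number of calls was not tested.

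No alternative called a member by genotype. Genes called by genotype were 9 as reported, 5 with the deposited scaling, 2 without the filter, 4 without the array type term, 2 with array type B alone, 5 without the intensity trend, 5 with the second brightest probe set and 2 to 54 with 1 array left out. The member median ran from -0.37 to 0.13 with 1 array left out. A replicate block on the label numbers, which leaves out the array type term, called 2 genes and 0 members, with a member median of -0.64. At an unadjusted p under 0.05 (limma) it had 10 of 32 members, all lower in double-null, against 482 of 7436 genes. The other fits on all 5 arrays had 1 to 3 members at that level, so the unadjusted genotype result depended on the model. In the block fit double-null pool 3 was alone in its block and so did not enter the genotype difference. Number 2 set double-null pool 2 on type B against wildtype pool 2 on type A. Genotype and array type cannot be told apart in that block, and its part in the 10 members was not tested. Deviations of same-numbered arrays correlated at 0.0021 for number 1 and -0.18 for number 2, and the numbers were not treated as pairs.

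The share difference by array type was 0.562 percentage points with all probe sets as the denominator, against 0.946 as reported, because that sum is larger, and the ratio of type A to type B was 1.76 against 1.75. It was 0.808 to 1.07 with 1 array left out. Probe sets near the Bacillus controls, such as those of Sln, Myog and Ankrd2, limit what can be read from these genes.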
